A study of Mus musculus with 10 samples.

Results

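The unfolded protein response is read here through 10 genes: the endoplasmic reticulum stress sensors Ern1, Eif2ak3 and Atf6, the transcription factor genes Xbp1 and Atf4, and 5 of their targets, Hspa5, Edem1, Trib3, Dnajb9 and Dnajc3. They were taken by symbol from the deposited table of 18493 genes. All 10 passed the filter on low counts, among 12315 genes tested. The samples were RNA sequencing libraries of mouse oocytes, labelled as germ cells of the ovary and made by SMART-seq2, a protocol for very small inputs that copies and amplifies RNA captured by its poly(A) tail. There were 3 libraries of young oocytes, labelled control, 3 of aged oocytes, labelled treatment, and 4 of oocytes with spermidine, labelled rescue. Spermidine is a polyamine that cells make and also take up. The design text of the series speaks of aged oocytes improved by spermidine, so its 4 libraries are read as aged oocytes given it. The labels name no strain, genotype, age, dose, route or number of oocytes in a library for any group. They also do not say that libraries came from separate animals, so the p-values reflect library-to-library spread that may be technical.

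The endoplasmic reticulum is where secreted and membrane proteins fold, and an oocyte makes large amounts of such proteins for its zona pellucida and for signals to the follicle. When unfolded proteins build up, 3 sensors in its membrane respond. IRE1, the product of Ern1, cuts Xbp1 mRNA so that it can be spliced into the form that encodes an active transcription factor. PERK, the product of Eif2ak3, phosphorylates the translation factor eIF2, which slows most translation and favours translation of Atf4 mRNA. ATF6 moves to the Golgi, where proteases release its transcription factor part. Much of this is regulated through protein and splicing: gene counts do not separate the splice forms of Xbp1 and do not show the translation of Atf4, the phosphorylation of PERK or the cleavage of ATF6.

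The depth was 24222201 to 28730822 counts a library, with 15353 to 15737 genes detected. Levels are given as CPM, the usual scaling of counts to library size, here with TMM factors, in which 1 count was worth 0.0301 to 0.0461 CPM. Aged replicate 1 stood apart by transcript length: the correlation, across genes, of its deviations from the mean over libraries with transcript length was 0.464, against 0.172 in spermidine replicate 1 and -0.25 to 0.048 in the others. For GC content the lowest correlation was -0.304, in young replicate 3, and the highest 0.411, in aged replicate 3. All 8 oocyte markers were present, with summed levels of 22029 to 24817 CPM in young, 22316 to 30131 CPM in aged and 14924 to 32154 CPM in spermidine libraries. Of these 8, Nlrp5 and Ddx4 were higher and Figla lower in aged minus young, and Ddx4 was lower in spermidine minus aged. The 12 granulosa and cumulus cell markers summed to 20.3 to 23.8, 20.3 to 23.9 and 21.4 to 28.3 CPM in the same order, and 2 of the 6 tested rose in aged libraries. The 8 theca and stromal markers summed to 2.94 to 3.55, 1.69 to 2.24 and 1.57 to 2.35 CPM, so young libraries stood above the other groups. The 10 blood and immune markers in the table, of 11 listed, summed to 1.08 to 26.7, 0.661 to 11.7 and 0.729 to 1.3 CPM, with the haemoglobin genes present mainly in young replicates 1 and 3 and aged replicate 1. No marker was at 0 in all libraries. The part of these markers in the results was not tested. The libraries are bulk samples, so fewer cells of a type and less RNA per cell cannot be told apart.

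In aged oocytes the sensor genes of the IRE1 and PERK branches were higher, together with the targets Edem1 and Trib3, while the co-chaperone genes Dnajb9 and Dnajc3 were lower. Ern1 rose by 1.31 on the log2 scale (SE 0.24), Edem1 by 1.48 (SE 0.27), Trib3 by 2.42 (SE 0.76) and Eif2ak3 by 0.87 (SE 0.27). Dnajb9 fell by 1.00 (SE 0.20) and Dnajc3 by 0.43 (SE 0.12). By edgeR (quasi-likelihood F test, Benjamini-Hochberg adjusted p under 0.05), 4 of the 10 genes were thus higher and 2 lower in aged minus young. Over all genes tested, 9.71% were higher and 8.06% lower, 17.8% in either direction. The young and aged libraries did not overlap for 8 of the 10 genes, 4 higher and 4 lower, against 40.0% of all genes, 21.1% higher and 18.8% lower. The median difference of the 10 genes was 0.35 on the log2 scale, against 0.10 for all genes. The 6 calls were not equally firm. Ern1, Edem1 and Dnajb9 kept theirs in every alternative that tested them, whereas the count of calls fell to 3 under a stricter filter, which tests 6 of the 10 genes, and without young replicate 1, aged replicate 2 or aged replicate 3.

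With spermidine, only 1 of the 10 genes passed the test against aged oocytes: Ern1, which fell by 1.50 on the log2 scale (SE 0.22). Over all genes tested, 2.42% were higher and 2.44% lower in spermidine minus aged, 4.86% in either direction. The groups did not overlap for 3 of the 10, with Dnajc3 higher and Ern1 and Eif2ak3 lower, against 19.9% of all genes, 11.4% higher and 8.49% lower. The median difference was -0.05 for the 10 genes and -0.03 for all genes. Against young oocytes, only Edem1 passed, higher in spermidine libraries by 1.76 (SE 0.26), where 3.44% of all genes were higher and 1.92% lower, 5.36% in either direction. Here 3 of the 10 did not overlap, Edem1 higher and Dnajb9 and Dnajc3 lower, against 21.0% of all genes, 12.1% higher and 8.92% lower. The median difference was -0.04 for the 10 genes and 0.04 for all genes. The 3 comparisons share libraries, since each group enters 2 of them, so their values are given side by side and were not related to each other.

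How libraries are scaled shifts these backgrounds. In aged minus young, scaling to total counts moved the median of all genes from 0.10 to 0.24, and the genes called from 1196 higher and 993 lower to 1236 and 405. For spermidine minus young the same scaling moved the median of all genes from 0.04 to 0.23 and the calls from 424 higher and 236 lower to 605 and 126. A correction for transcript length and GC content moved the calls in spermidine minus aged from 298 higher and 300 lower to 303 and 503. The median of the 10 genes in aged minus young was 0.50 with total counts, and 0.29 after the length and GC correction.

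**Figure D1:**
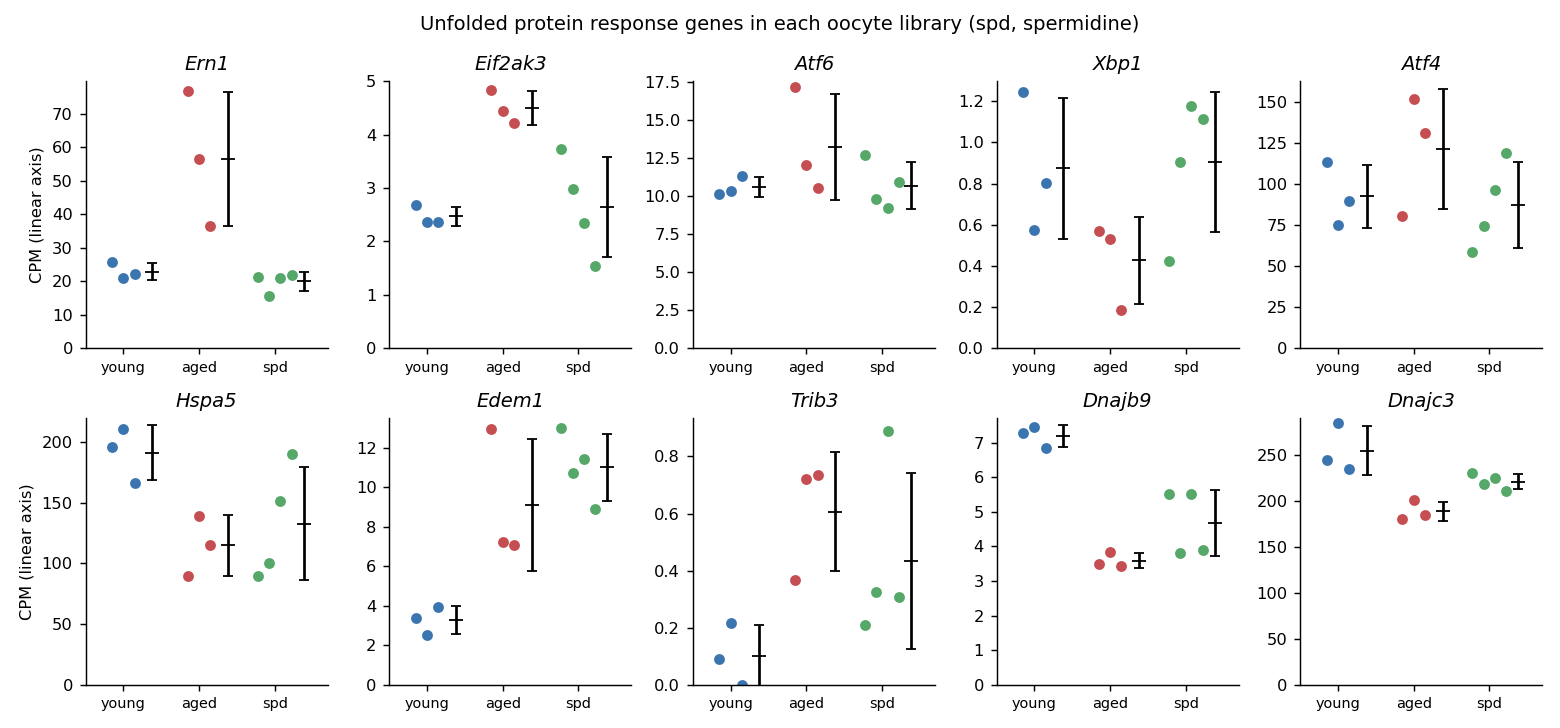
Level of each of the 10 genes in every library, in CPM on a linear axis from 0, with 1 panel per gene; points are libraries and bars are the group mean with the SD (3 young, 3 aged, 4 spermidine). Ern1 is highest in the 3 aged libraries, with spermidine and young libraries overlapping, Edem1 is high in aged and spermidine libraries alike, and Dnajb9 and Dnajc3 are highest in the young libraries.

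Ern1 encodes IRE1, the kinase and endoribonuclease that starts its branch. Its level was 25.8, 20.9 and 22.0 CPM in young replicates 1 to 3, and 76.7, 56.4 and 36.5 CPM in aged replicates 1 to 3. The 4 spermidine libraries had 21.1, 15.7, 21.0 and 22.0 CPM. Every aged library lay above every young and every spermidine library, and young and spermidine libraries overlapped. The means were 22.9 ± 2.56 CPM (SD, n = 3) in young, 56.6 ± 20.1 (n = 3) in aged and 19.9 ± 2.87 (n = 4) in spermidine libraries, and the aged libraries were the most spread. The level was thus 2.47-fold higher in aged than young (adjusted p = 0.00469) and 2.83-fold lower in spermidine than aged (adjusted p = 0.00669, edgeR quasi-likelihood test). By its p-value the fall with spermidine ranked 29 among 12315 genes. Between spermidine and young the difference was -0.20 on the log2 scale, with a 95% interval of -0.68 to 0.28. Ern1 transcripts are long, at the 90.6 percentile of length among tested genes, and its highest level was in aged replicate 1, the library with the strongest length trend. After the length and GC correction the rise was 1.06 and the fall 1.33, both still called. Without aged replicate 1 the rise was 0.98 and the fall 1.22. Both calls were kept in all 20 alternatives, with adjusted p from 3.11e-05 to 0.0293 for the rise and from 1.37e-07 to 0.0307 for the fall.

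Xbp1, whose mRNA is the substrate of IRE1, was among the lowest of the 10 genes, with 5 to 29 counts in a library. It had 1.24, 0.574 and 0.801 CPM in young replicates 1 to 3, 0.567, 0.531 and 0.183 CPM in aged replicates 1 to 3, and 0.421, 0.906, 1.17 and 1.11 CPM in spermidine replicates 1 to 4. The aged libraries lay below the young ones, by a gap of only 0.574 against 0.567 CPM, while aged and spermidine libraries overlapped through spermidine replicate 1. The differences of -1.0 (SE 0.50) in aged minus young and 1.05 (SE 0.46) in spermidine minus aged did not pass the test, with adjusted p = 0.170 and 0.189 by edgeR, and no alternative called either. At this depth the 95% intervals, -2.08 to 0.07 and 0.05 to 2.06, are wide. Between spermidine and young the difference was 0.05, with an interval of -0.90 to 0.99.

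Edem1, a lectin-like protein that steers misfolded glycoproteins to degradation and a target of XBP1, had 3.36, 2.51 and 3.91 CPM in young replicates 1 to 3. Aged replicates 1 to 3 had 12.9, 7.24 and 7.08 CPM, and spermidine replicates 1 to 4 had 13.0, 10.7, 11.4 and 8.90 CPM. All 7 aged and spermidine libraries lay above all 3 young libraries, and the aged and spermidine ranges overlapped. The rise in aged oocytes was 2.79-fold (adjusted p = 0.00471), and the level in spermidine libraries was 3.38-fold that in young ones (adjusted p = 0.00202, edgeR). Spermidine minus aged was 0.28, with a 95% interval of -0.25 to 0.80 and adjusted p = 0.513. The library with the highest aged level was again replicate 1, and Edem1 lies at the 85.2 percentile of transcript length. Its rise in aged oocytes was 1.10 without that library and 1.33 after the length and GC correction. All 20 alternatives called both differences from young, from 1.09 to 1.65 for aged and from 1.60 to 1.96 for spermidine.

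Dnajb9 encodes ERdj4, a co-chaperone of the luminal chaperone BiP and also an XBP1 target. Its level was 7.28, 7.47 and 6.85 CPM in young replicates 1 to 3 and 3.50, 3.83 and 3.45 CPM in aged replicates 1 to 3. Spermidine replicates 1 to 4 had 5.50, 3.81, 5.51 and 3.91 CPM. The young libraries stood above all others, and the spermidine libraries formed a pair near the aged level and a pair between the aged and young levels. Dnajb9 fell 2.00-fold in aged oocytes (adjusted p = 0.00702, edgeR) and was called in all 19 alternatives that tested it, from -1.09 to -0.78. Its transcript is low in GC content, at the 7.6 percentile of tested genes, and the GC correlations were highest in aged replicates 3 and 2 (0.411 and 0.271). The call was kept after the length and GC correction. Spermidine minus aged was 0.38 (95% interval -0.03 to 0.79, adjusted p = 0.236). Spermidine minus young was -0.62 with adjusted p = 0.0734, and it passed with DESeq2 (adjusted p = 0.0121), without aged replicate 1 (-0.66, adjusted p = 0.0477), and with aged and spermidine replicates 1 both left out (-0.73, adjusted p = 0.0350). Dnajb9 and Edem1, both XBP1 targets, thus differed from young in opposite directions in aged oocytes. Exons of Dnajb9 overlap the microRNA gene Mir5627 on the other strand by 14 bases, and whether counting used strand is not known here.

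**Figure D2:**
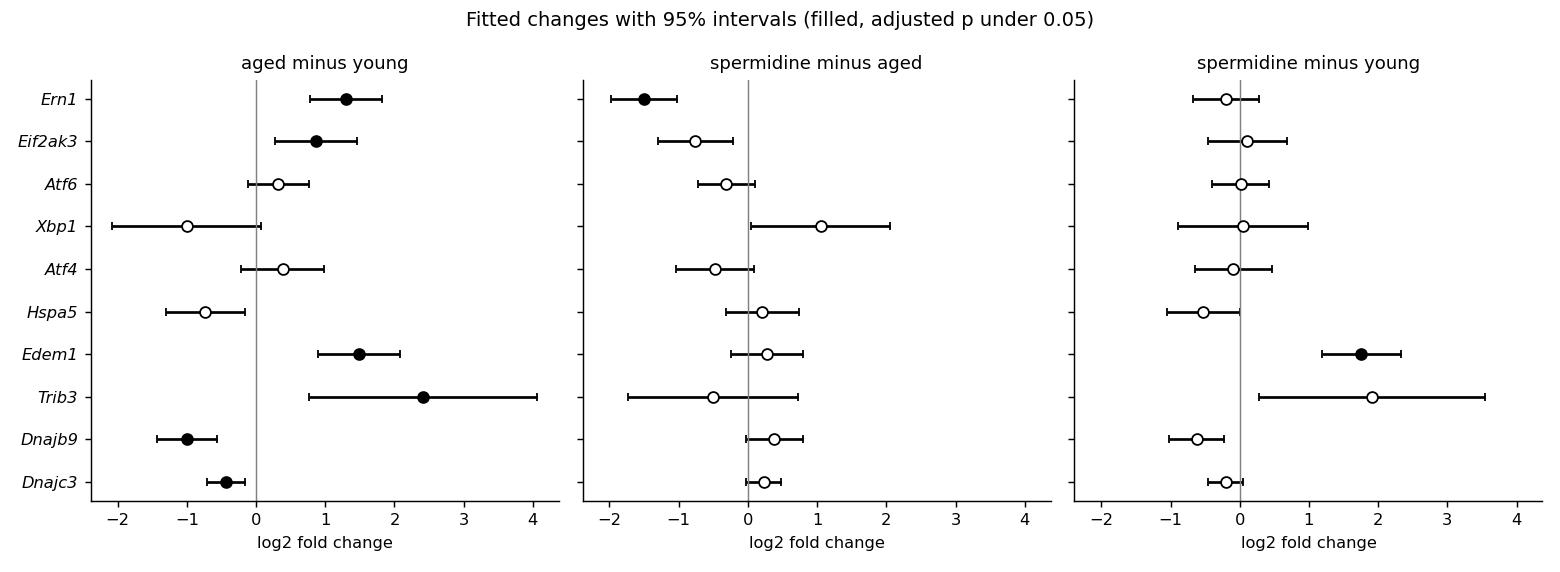
Differences between groups on the log2 scale for the 10 genes, with 95% intervals, in the 3 comparisons; filled points passed the test at an adjusted p of 0.05. In aged minus young 6 points are filled, and 1 in each of the others, Ern1 in spermidine minus aged and Edem1 in spermidine minus young.

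Eif2ak3, the gene of the sensor kinase PERK, had 2.67, 2.37 and 2.36 CPM in young replicates 1 to 3 and 4.84, 4.43 and 4.22 CPM in aged replicates 1 to 3. Spermidine replicates 1 to 4 had 3.73, 2.97, 2.35 and 1.53 CPM. The aged libraries were the highest and close to each other, none overlapping with either group, while the spermidine libraries ranged from below to above the young ones. The rise in aged oocytes was 1.82-fold, with adjusted p = 0.0464 by edgeR, just under the threshold. This call was lost in 13 of 19 alternatives, among them each left-out young or aged library and spermidine replicates 2 and 3, with differences of 0.77 to 0.91 and adjusted p of 0.0583 to 0.145. The others were RLE size factors, total count scaling, no filter, the length and GC correction, and aged and spermidine replicates 1 left out together. Over all 19 the difference ran from 0.67 to 1.01. In spermidine minus aged the difference was -0.76 (SE 0.25, adjusted p = 0.0919), and it passed with DESeq2 (adjusted p = 0.0442) and without spermidine replicate 1 (-0.98, adjusted p = 0.0461). Spermidine minus young was 0.11, with an interval of -0.46 to 0.68. Exons of Eif2ak3 overlap Gm43292, an unclassified gene model on the other strand, by 485 bases, so reads within these bases cannot be told apart without strand.

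Atf4 encodes the transcription factor whose translation PERK signalling favours. Its level was 113, 75.3 and 89.7 CPM in young replicates 1 to 3, 80.7, 152 and 131 CPM in aged replicates 1 to 3, and 58.9, 74.4, 96.3 and 119 CPM in spermidine replicates 1 to 4. The 3 groups overlapped, and the libraries of each group differed widely among themselves. No difference passed the test: 0.39 (95% interval -0.22 to 0.99) in aged minus young, -0.48 (-1.04 to 0.08) in spermidine minus aged and -0.09 (-0.65 to 0.47) in spermidine minus young. No alternative called any of them.

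Trib3, a pseudokinase gene activated by ATF4 and its partner CHOP, was the member with the fewest counts. Young replicates 1 to 3 had 2, 6 and 0 counts, aged replicates 1 to 3 had 11, 19 and 20, and spermidine replicates 1 to 4 had 7, 9, 22 and 8. In CPM these were 0.0921, 0.215 and 0 in young, 0.367, 0.720 and 0.734 in aged, and 0.211, 0.326, 0.891 and 0.307 in spermidine libraries. The aged libraries lay above the young ones, and the spermidine libraries reached from the young range to above the aged one. A count of 0 in young replicate 3 allows up to 3 counts, or 0.133 CPM, by counting error only. The rise of 2.42 in aged oocytes passed with adjusted p = 0.0454 (edgeR), with a 95% interval of 0.77 to 4.07. This call was lost in 5 of 19 alternatives: without young replicate 1 (2.29, adjusted p = 0.143), young replicate 3 (1.84, 0.136), aged replicate 2 (2.28, 0.0974), aged replicate 3 (2.26, 0.103) or spermidine replicate 2 (2.39, 0.0631). It was 3.61 without young replicate 2. Trib3 lies at the 92.9 percentile of GC content among tested genes, and the call was kept after the length and GC correction. Spermidine minus aged was -0.51 (-1.74 to 0.73), and spermidine minus young was 1.91 (0.28 to 3.55) with adjusted p = 0.176.

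**Figure D3:**
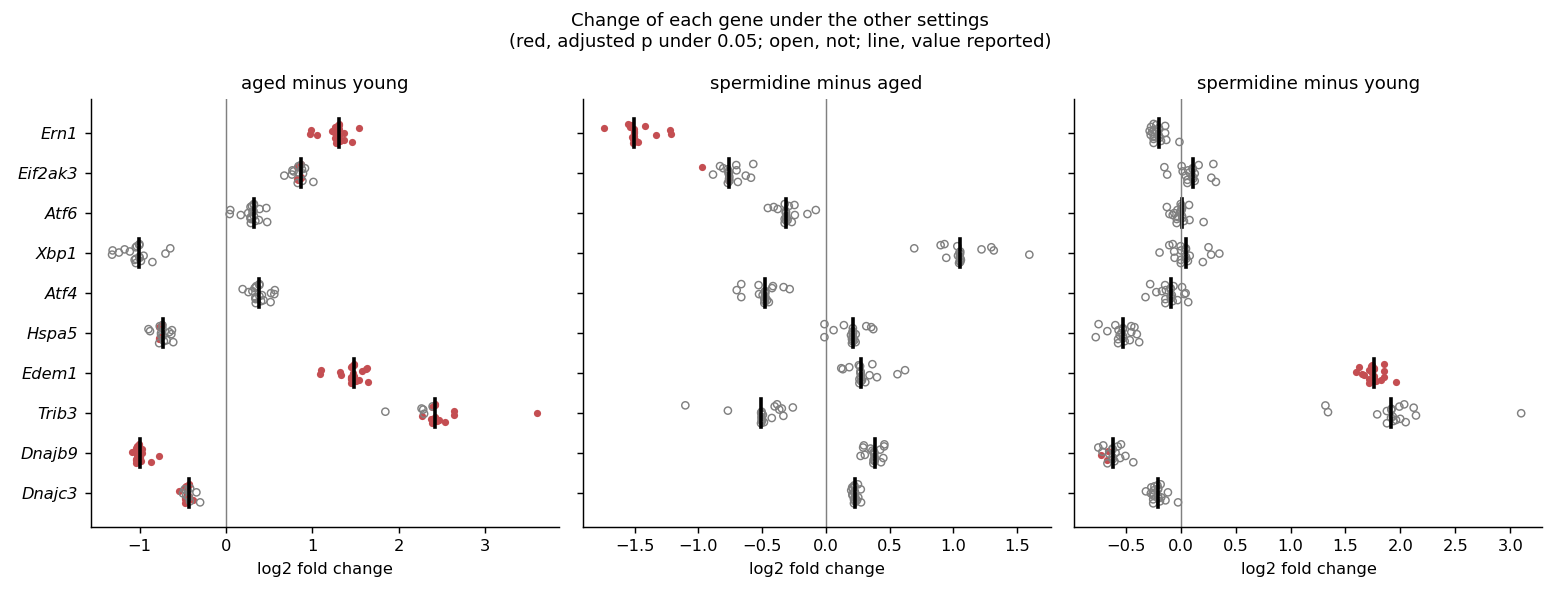
Differences on the log2 scale of each gene in the 3 comparisons under the 20 alternatives, 10 of which each leave out 1 library; the vertical line is the value reported and red points passed at an adjusted p of 0.05. Ern1, Edem1 and Dnajb9 in aged minus young, Ern1 in spermidine minus aged and Edem1 in spermidine minus young are red throughout, and Trib3 is the most spread, from 1.84 to 3.61 in aged minus young.

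Atf6 encodes the sensor that is itself a precursor of a transcription factor. Its level was 10.1, 10.3 and 11.3 CPM in young replicates 1 to 3, 17.2, 12.1 and 10.5 CPM in aged replicates 1 to 3, and 12.7, 9.83, 9.23 and 11.0 CPM in spermidine replicates 1 to 4. The groups overlapped, with aged replicate 1 the highest library and spermidine replicate 1 the next. Aged minus young was 0.32 (95% interval -0.12 to 0.76), spermidine minus aged -0.31 (-0.72 to 0.10) and spermidine minus young 0.01 (-0.40 to 0.43), none of which passed here or in any alternative. Without aged replicate 1 the difference in aged minus young was 0.05. Of the sensors Atf6 was thus the one with no call, and a direct test between sensors was not made.

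Hspa5 and Dnajc3 are classical targets of ATF6 and XBP1. The element bound by ATF6 with the factor NF-Y is known as the ERSE, here searched on both strands as CCAAT and CCACG with any 9 bases between them. In the 250 bases before the start site it was found in 2 of the 9 genes that have a promoter in the RefSeq table, these same 2, against 37 of 32851 promoters, or 0.113%, and 21 of the 12588 promoters of tested genes. Both promoters are shown because they carry this match, from RefSeq on GRCm38.p6, plus strand, 5′ to 3′, at chr2:34771840-34772089 for Hspa5 and chr14:118937682-118937931 for Dnajc3, with the match in capitals.
Hspa5: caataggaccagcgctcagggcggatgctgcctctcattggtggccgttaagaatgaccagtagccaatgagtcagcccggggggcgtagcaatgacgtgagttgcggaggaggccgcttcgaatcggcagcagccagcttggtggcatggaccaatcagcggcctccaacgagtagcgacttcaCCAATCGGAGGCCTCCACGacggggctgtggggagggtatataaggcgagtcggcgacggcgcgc
Dnajc3: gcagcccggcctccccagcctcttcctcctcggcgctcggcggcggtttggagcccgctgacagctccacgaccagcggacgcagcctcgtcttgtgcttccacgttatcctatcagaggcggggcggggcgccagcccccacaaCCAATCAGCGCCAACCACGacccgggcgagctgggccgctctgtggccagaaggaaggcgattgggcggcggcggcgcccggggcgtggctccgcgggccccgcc
The match lies 65 to 47 bases before the start in Hspa5 and 105 to 87 bases before it in Dnajc3. The letters of 3 other elements, ERSE-II as ATTGG and CCACG with any 1 base between, UPRE as TGACGTGG and the amino acid response element as TGATGNAA, were not in these windows of the 9 genes, and occur in 0.0304%, 0.563% and 3.45% of all promoters. UPRE and ERSE can share the letters CCACG. A match is a description of the sequence, and binding was not measured.

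Hspa5 encodes BiP, the main chaperone of the endoplasmic reticulum, which also holds the sensors inactive. Its level was 196, 211 and 166 CPM in young replicates 1 to 3 and 89.3, 139 and 115 CPM in aged replicates 1 to 3. Spermidine replicates 1 to 4 had 90.0, 99.96, 152 and 190 CPM. Every aged library lay below every young one, and the spermidine libraries spread from the lowest aged to the young level. The oocyte marker Gdf9 rose in the same order of spermidine replicates 1 to 4, with 5745, 8697, 11832 and 13192.5 CPM, whereas the marker Figla did not. Whether this spread reflects a difference between libraries in oocyte transcripts at large was not tested. The aged minus young difference of -0.74 (SE 0.26) had adjusted p = 0.0696 by edgeR and so did not pass. It passed in 5 of 20 alternatives, among them with DESeq2 (adjusted p = 0.0325), with only the groups compared (0.0249), without spermidine replicate 1 (-0.78, 0.0356) and without spermidine replicate 4 (-0.74, 0.0375). Over all 20 its value ran from -0.90 to -0.61. Spermidine minus aged was 0.21 (95% interval -0.32 to 0.74) and spermidine minus young -0.52 (-1.05 to 0.00), with adjusted p = 0.631 and 0.251.

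Dnajc3 encodes a co-chaperone of BiP, also known as an inhibitor of PERK and related kinases. It was the most abundant of the 10 genes in CPM, with 244, 285 and 234 CPM in young replicates 1 to 3, 180, 201 and 184 CPM in aged replicates 1 to 3 and 230, 218, 224 and 211 CPM in spermidine replicates 1 to 4. The 3 groups did not overlap at all, with the spermidine libraries between the aged and the young ones. The means were 254 ± 26.8 CPM (SD, n = 3), 188 ± 10.8 (n = 3) and 221 ± 8.47 (n = 4). The fall in aged oocytes was 1.35-fold (adjusted p = 0.0316, edgeR), and spermidine minus aged was 0.23 (95% interval -0.02 to 0.48, adjusted p = 0.247) and spermidine minus young -0.20 (-0.45 to 0.05, adjusted p = 0.353). The call in aged oocytes was lost in 9 of 20 alternatives. Among these were total count scaling (-0.30, adjusted p = 0.175), no filter (0.0684), the length and GC correction (0.0777), and leaving out young replicate 1 (-0.50, 0.0651), young replicate 2 (-0.34, 0.0884), aged replicate 1 (-0.44, 0.0553), aged replicate 2 (-0.48, 0.0565) or aged replicate 3 (-0.42, 0.0922).

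Levels can be set against each other between genes only per length, here as CPM per kilobase of the longest protein-coding transcript. In young oocytes Atf4, Hspa5 and Dnajc3 led, at 53.8 ± 11.1, 52.0 ± 6.13 and 49.5 ± 5.20 (SD, n = 3), and their ranges overlapped. Ern1 at 3.29 and Dnajb9 at 2.93 followed with overlapping ranges, then Atf6 at 1.46. Edem1, Eif2ak3 and Xbp1 came next at 0.561, 0.547 and 0.410, each overlapping the next, and Trib3 was last at 0.0506. Hspa5, Dnajc3 and Atf4 stood above all sensors with no overlap in any of the 3 groups. Among the sensors Ern1 stood above Atf6 and Atf6 above Eif2ak3 with no overlap in any of the 3 groups. In aged oocytes Atf4 led alone at 70.3 ± 21.3, above Dnajc3 at 36.6 and Hspa5 at 31.2, and Ern1 reached 8.14 ± 2.89. Dnajb9, at 1.46, was there below Atf6 at 1.83 and Edem1 at 1.56, with overlapping ranges. Xbp1 was last at 0.201 in the aged group, its range overlapping that of Trib3 at 0.300. With spermidine Atf4 at 50.5, Dnajc3 at 43.0 and Hspa5 at 36.2 again came first, each range overlapping the next, above Ern1 at 2.87. Dnajb9 at 1.90, Edem1 at 1.89 and Atf6 at 1.48 followed with overlapping ranges.

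The genes most like Ern1 over the 10 libraries were sought by Pearson correlation of log2(CPM + 1), among the 7021 genes whose mean level reached 5 CPM. They were Mapk6, an atypical MAP kinase gene (r = 0.964), Hectd4 (0.957), Ttll5 (0.954) and Ankrd27 (0.952). Mapk6 had means of 33.8, 57.1 and 34.0 CPM in young, aged and spermidine libraries. For Dnajb9 the most like were Dppa4 (r = 0.950), Mrrf (0.935), Lmo3 (0.928) and Spag7 (0.927). Dppa4, a gene of pluripotent and germ cells, had 15.8, 4.06 and 7.29 CPM in the same groups. As many as 45 genes had r over 0.9 with Ern1 and 23 with Dnajb9. These are descriptions over 10 points that share the group differences and the library trends.

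Beyond the 10 genes, 112 other genes of the pathway were tested in 5 lists, some in more than 1 list: the IRE1, PERK and ATF6 branches, the folding machinery of the endoplasmic reticulum and its degradation pathway. In aged minus young 9 were higher (8.04%) and 5 lower (4.46%), both shares below the 9.71% and 8.06% of all genes, with a median of 0.21 against 0.10. For spermidine minus aged the counts were 0 and 2, or 1.79% lower, where all genes gave 2.42% and 2.44%, and the median was -0.09 against -0.03. For spermidine minus young they were 3 and 3, or 2.68% in each direction, where all genes gave 3.44% and 1.92%, and the median was 0.06 against 0.04. Shares near those of all genes are not a result about the lists, so what follows describes single genes. Genes under 0.05 before adjustment were common among all genes too. By their ranks in the edgeR test, they were at least 2730 of 12315 in spermidine minus aged and at least 1781 in spermidine minus young. Counts of such genes in a list are thus given as descriptions only.

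Among the 26 tested genes of the IRE1 list, 2 rose and 0 fell in aged oocytes, 7.69% higher against 9.71% of all genes and 0 lower against 8.06%, and the median was 0.0002. DESeq2 called 3 higher and 4 lower here, and the length and GC correction gave 2 and 2, so the split depends on the processing. Without young replicate 1, 2 or 3, aged replicate 3 or spermidine replicate 2, only 1 gene was called. Srp54a, a subunit of the signal recognition particle with close paralogs that may share reads, rose by 1.58 (SE 0.21, adjusted p = 0.000887, edgeR), and its call was kept in all 20 alternatives. Sec31a, a COPII coat gene, rose by 0.60 (adjusted p = 0.0469), a call lost in 15 of 20 alternatives, including the length and GC correction (0.38, adjusted p = 0.127) and each left-out library but spermidine replicate 1 (0.41 to 0.70, adjusted p = 0.0513 to 0.185). Ssr1, a subunit of the translocon-associated complex, was the 1 gene that fell in spermidine minus aged, by 0.80 (adjusted p = 0.0285), a call lost without aged replicates 2 or 3 or spermidine replicates 2 or 3 (-0.90 to -0.76, adjusted p = 0.0539 to 0.0954), with total count scaling (0.0763) and with only the groups compared (0.0672). DESeq2 called 3 lower there, and the count was 3 without aged replicate 1, 2 without spermidine replicate 4, and 2 after the length and GC correction. The 1 call is 3.85% of the list, against 2.44% of all genes lower. In spermidine minus young 2 were higher and 2 lower, 7.69% each against 3.44% and 1.92% of all genes: Srp54a at 1.47, Map3k5, a stress kinase gene, at 0.80, Ssr1 at -1.28 and Srprb, a subunit of the receptor for the same particle, at -1.27. Map3k5 lost its call without young replicates 1 or 3 or spermidine replicate 2 (0.63 to 0.75, adjusted p = 0.0632 to 0.126), and the others kept theirs in all 20 alternatives.

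Of the 29 tested genes of the PERK list, 3 rose and 1 fell in aged oocytes, 10.3% and 3.45% against 9.71% and 8.06% of all genes, with a median of 0.28. Aars, an alanyl-tRNA synthetase gene and ATF4 target, rose by 0.75 (adjusted p = 0.0175), Eif2ak1, an eIF2 kinase gene, by 0.64 (0.0299) and Slc7a5, an amino acid transporter gene, by 1.31 (0.0479). Eif2s1, which encodes the subunit of eIF2 that PERK phosphorylates, fell by 0.44 (0.0413, edgeR). Each of these calls was lost without some single library. The count of 4 was 0 without young replicate 1 or 3, 1 without aged replicate 2 or 3 and 2 without spermidine replicate 3. It was 5 with aged and spermidine replicates 1 left out together and 6 without spermidine replicate 4. Without young replicate 1 the calls over all genes also fell, from 2189 to 827. After the length and GC correction the 4 named genes all lost their calls, with Aars at 0.35 (adjusted p = 0.135), Eif2ak1 at 0.52 (0.0863), Eif2s1 at -0.34 (0.115) and Slc7a5 at 1.04 (0.131). The list still had 3 calls after this correction, all higher and in other genes. Aars lost its call without young replicates 1 or 3 or aged replicate 2 (0.56 to 0.69, adjusted p = 0.0575 to 0.0925), and Eif2ak1 without those or aged replicate 3 (0.53 to 0.61, adjusted p = 0.0792 to 0.149). Eif2s1 lost it without young replicates 1 or 3, any aged replicate or spermidine replicate 3 (-0.48 to -0.43, adjusted p = 0.0563 to 0.129), and with total count scaling (-0.29, 0.101) and no filter (0.0786). For Slc7a5 the call was lost without any single library but aged replicate 2 (0.77 to 1.54, adjusted p = 0.0538 to 0.208), with 0.77 without aged replicate 1. Its call was kept in only 3 of the 19 alternatives that tested it. The level of Slc7a5 was low, with means of 0.448 (SD 0.111) CPM in young and 1.12 (SD 0.621) CPM in aged libraries. With spermidine against aged, edgeR called 0 of the 29, of which 4 were under 0.05 before adjustment, and the count was 1, lower, with DESeq2 and also without aged replicate 1 or without spermidine replicate 4. The smallest p was that of Eif2ak1, at -0.58 with adjusted p = 0.0626. In spermidine minus young 1 was higher, or 3.45% against 3.44% of all genes. It was Cth, an enzyme gene of cysteine synthesis, at 1.00 (adjusted p = 0.0184), a call lost without any young replicate or spermidine replicate 2 (0.79 to 1.02, adjusted p = 0.0656 to 0.109).

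**Figure D4:**
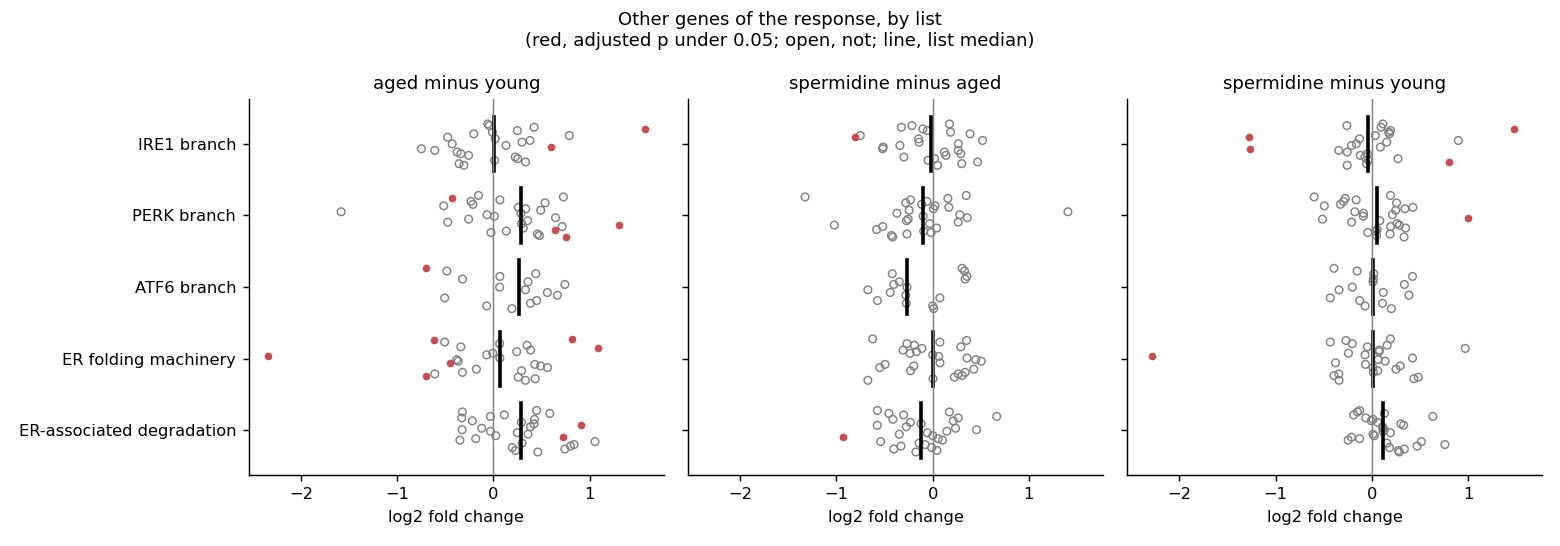
Differences on the log2 scale of the other tested genes of the 5 lists in the 3 comparisons; each point is a gene, red points passed at an adjusted p of 0.05 and the line is the median of the list. In aged minus young the lowest red point is Ero1a at -2.35 in the folding list, and in spermidine minus aged 2 genes are red, Ssr1 and Rnf185.

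Of the 16 genes of the ATF6 list, 0 rose and 1 fell in aged oocytes, 6.25% lower against 8.06% of all genes and 0 higher against 9.71%. DESeq2 called 1 higher and 1 lower, and the same counts were found without spermidine replicate 1. It was Manf, a secreted stress-induced factor of the endoplasmic reticulum, which fell by 0.70 (SE 0.13, adjusted p = 0.0054, edgeR) and was called in all 20 alternatives. The median of this list was 0.26, above that of all genes. By edgeR 0 of the 16 passed in spermidine minus aged, where 3 were under 0.05 before adjustment, DESeq2 called 0 and 2 were called lower without spermidine replicate 4. By the same test 0 passed in spermidine minus young, where 1 was under 0.05 before adjustment and DESeq2 called 1. Calr, the chaperone calreticulin, had the smallest p in the former, at -0.67 with adjusted p = 0.144, and Manf in the latter, at -0.39 with adjusted p = 0.0881.

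In the folding list of 27 genes, 2 rose and 4 fell in aged oocytes, 7.41% and 14.8% against 9.71% and 8.06% of all genes, with a median of 0.06. The count of 6 was 3 without young replicate 1 or aged replicate 3, and 4 after the length and GC correction. The 2 that rose were Txndc5, called in 15 of 20 alternatives (0.69 to 0.97), and Wfs1, called in 14 of the 19 that tested it (0.67 to 1.41). The 4 that fell were Ero1a, the oxidase that drives disulfide formation (-2.35, SE 0.23, adjusted p = 0.000103), Manf, Sdf2 (-0.62, adjusted p = 0.00964) and Ppib, a prolyl isomerase (-0.45, adjusted p = 0.0262, edgeR). Ero1a also was lower in spermidine than young libraries, at -2.28 (adjusted p = 6.79e-05), the 1 gene of this list to pass there (DESeq2 called 4, and 2 passed without young replicate 3), and both of its calls were kept in all 19 alternatives that tested it. Sdf2 kept its call in all 20, but was at -0.34 after the length and GC correction (adjusted p = 0.0444). The Ppib difference was -0.05 after that correction (adjusted p = 0.824), and its call was also lost with total count scaling (-0.31, 0.141), with no filter (0.0573) and without young replicates 1 or 3 or aged replicates 2 or 3 (-0.48 to -0.40, adjusted p = 0.0591 to 0.0931). In spermidine minus aged edgeR called 0 of the 27, of which 6 were under 0.05 before adjustment, and DESeq2 called 0. Without spermidine replicate 4 there were 3 calls, all lower, and without aged replicate 1 there was 1. The smallest p there was that of Txndc5, a disulfide isomerase gene, at -0.62 with adjusted p = 0.101.

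The degradation list had 29 tested genes, of which 2 rose and 0 fell in aged oocytes, 6.9% higher against 9.71% of all genes and 0 lower against 8.06%, with a median of 0.29. DESeq2 called 4, all higher, and the count was 0 without any one young replicate or aged replicate 3, and 1 without aged replicate 2. They were Rnf185, a ubiquitin ligase gene (0.72, adjusted p = 0.0353), and Nploc4, a cofactor of the extraction ATPase VCP (0.91, adjusted p = 0.0402, edgeR). Rnf185 was also the 1 gene of the list that passed in spermidine minus aged, where it fell by 0.93 (adjusted p = 0.0245), or 3.45% of the list against 2.44% of all genes; 2 passed with DESeq2 and without spermidine replicate 4. The Rnf185 rise lost its call without any young replicate or aged replicates 2 or 3 (0.57 to 0.76, adjusted p = 0.0685 to 0.152), and its fall without aged replicates 2 or 3 or spermidine replicates 2 or 3 (-0.95 to -0.78, adjusted p = 0.0628 to 0.0954) and with only the groups compared (0.0732). Nploc4 lost its call without any young replicate, aged replicates 1 or 3 or spermidine replicate 2 (0.50 to 1.00, adjusted p = 0.0571 to 0.138), with 0.50 without aged replicate 1. It was also lost with total count scaling (adjusted p = 0.0604), with only the groups compared (0.0561) and after the length and GC correction (0.66, 0.105). In spermidine minus young edgeR and DESeq2 both called 0 of the 29, and 0 were under 0.05 before adjustment, with Selenos, a component of the same machinery, first at 0.63 (adjusted p = 0.253).

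The authors' deposited table holds its own test of 2 of these comparisons. In the authors' deposited table, aged against young had q under 0.05 for 3 of the 10 genes higher (Ern1, Eif2ak3 and Edem1) and 3 lower (Hspa5, Dnajb9 and Dnajc3), among 2105 of 17756 genes. Hspa5 was at -0.78 with q = 0.00399 in the authors' deposited table, and Trib3 at 2.47 with q = 0.0561, so these 2 genes lie on opposite sides of the threshold from the test above. For spermidine against aged the authors' deposited table has 1 of the 10 genes under 0.05, Ern1 at -1.52 with q = 4.18e-06, among 737 of 18032 genes.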

How the data were processed

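The authors deposited 1 table of expected counts, called read counts per the file headers, of which 15.9% to 16.7% in a library were not whole. It also holds the authors' deposited log2 fold changes with their p-values and q-values. The submitters' processing notes name RSEM 1.3.1, Bowtie2 2.3.4.3 and DESeq2 1.4.5, and the build mm9, without saying what each was used for. Whether counting used strand is not given in the sources used here.

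Expected counts were rounded. With R 4.3.3 and edgeR 4.0.16, 12315 genes kept by filterByExpr were tested, after TMM scaling, by the robust quasi-likelihood F test in 1 fit over all 10 libraries, with Benjamini-Hochberg adjustment over all genes and a threshold of 0.05. The SE is the one implied by the F statistic. The members and lists were chosen with earlier results of these data known. Named genes were the 10 members, and per list and comparison up to 4 genes of smallest p among those that passed, or the first by p where none passed. In the folding list the genes that rose in aged minus young, Txndc5 and Wfs1, were named as well. Likeness was sought for the member of smallest p in each direction of aged minus young.

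Alternatives were RLE size factors, total count scaling, DESeq2 1.42.0, a replicate block, a fit of only the groups compared, a fit without robust dispersion, no filter, a stricter filter asking 10 CPM in 3 libraries, a correction for length and GC content by splines with 5 degrees of freedom (limma 3.58.1), aged and spermidine replicates 1 left out together, and each library left out in turn. A GRCm38 annotation gave both for 97.4% of tested genes. That is not the build of the files, so coordinates are given only for RefSeq promoters, matched by symbol. In the replicate block spermidine replicate 4 has a term of its own, as no other group has that number.

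Counts of a gene limit its precision, and floors cover only counting error, as the reads have no molecular identifiers. On simulated data with 12121 genes, 100 of them changed by 1 and 100 by 2 on the log2 scale, the procedure recovered 47% and 99% for aged minus young, with 8 false calls among 154, and 57% and 99% for spermidine minus aged, with 7 among 163. No change was simulated for spermidine minus young, and 0 calls were made. The changed genes were drawn from those with a mean of at least 1 CPM, above the levels of Xbp1 and Trib3. Library trends with length or GC content were not simulated. Far fewer genes were changed than the 17.8% called in the data for aged minus young. The shares recovered are thus not the power for the 10 genes. Plots used matplotlib 3.10.9 under Python 3.11.15.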

Additional observations from a re-analysis of the deposited data

Results flagged for a closer look

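In the spermidine group 2 values lay far from the others of the group by Dixon's test of a gap against the range at 95%, which was applied to the 10 genes in that group of 4 libraries, the only one of that size. Chance flags about 1 in 20 groups. Ern1 was at 15.7 CPM in spermidine replicate 2, below 21.0 to 22.0 CPM in the other 3 libraries, and without that library spermidine minus aged was -1.42. Trib3 was at 0.891 CPM, or 22 counts, in spermidine replicate 3, above 0.211 to 0.326 CPM in the others, and without that library spermidine minus aged was -1.10.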

How the results depend on the processing

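Of 587 values of the 10 genes over the comparisons and alternatives, 527 kept their direction and side of the threshold, 27 lost a call, 10 gained one and 23 changed direction, 21 of those in spermidine minus young and 0 among called values. The cause of the changes was not tested. The members called in aged minus young, 6, were 3 with the stricter filter and 3 to 7 with a library left out, and the genes called, 2189, were 1179 and 827 to 2362, with 827 and 1031 when young replicates 1 and 3, and 1359 and 1426 when aged replicates 2 and 3, were left out in turn. For spermidine minus aged, 1 member called became 2 with DESeq2 and 1 to 2 with a library left out, and the 598 genes called became 259 with total count scaling, 1366 with DESeq2, 124 with only the groups compared and 99 to 1127 with a library left out (273 and 281 for young replicates 1 and 3, 99 and 167 for aged replicates 2 and 3, and 111, 167 and 1127 for spermidine replicates 2, 3 and 4). For spermidine minus young, 1 member called became 2 with DESeq2, 2 with aged and spermidine replicates 1 left out together and 1 to 2 with a library left out, and the 660 genes called became 273 with the stricter filter, 1099 with DESeq2 and 283 to 874 with a library left out (283 and 326 for young replicates 1 and 3, and 376 for spermidine replicate 2).

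Values that changed direction were all small. With a library left out, Hspa5 in spermidine minus aged ran from -0.0105 (without spermidine replicate 4) to 0.37. In spermidine minus young with a library left out, Eif2ak3 ran from -0.15 (without spermidine replicate 1) to 0.30, Atf6 from -0.13 (spermidine replicate 1) to 0.076, Xbp1 from -0.19 (young replicate 2) to 0.35 and Atf4 from -0.28 to 0.045 (young replicate 1). Atf6 was also -0.036 with RLE size factors, -0.036 with DESeq2 and -0.072 with the length and GC correction, and Atf4 was 0.069 with total count scaling. With aged and spermidine replicates 1 both left out, Eif2ak3 was -0.12, Atf6 -0.10 and Atf4 0.035.

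Groups share replicate numbers, but the labels do not say that a number marks a shared animal or day, and 3 of 9 same-numbered pairs of libraries had a correlation of deviations over 0.1 (range -0.275 to 0.408), with 5 of 18 best matches to the own number, so the numbers were not taken as pairs. Only the spermidine group has a replicate 4, so the replicate block gives that library a term of its own and takes it out of the comparisons. Its values for spermidine were thus close to those without spermidine replicate 4. With the replicate block the genes called in spermidine minus aged were 998, and Hspa5 there was -0.0107, against -0.0105 without that library. In spermidine minus young Atf6 was -0.026 and Xbp1 -0.055 with the block. The block also called Hspa5 in aged minus young (adjusted p = 0.0296) and lost Dnajc3 there (0.0501). Among the lists it called, in spermidine minus aged, 2 genes of the IRE1, 1 of the PERK, 2 of the ATF6, 3 of the folding and 2 of the degradation list, all lower. The same counts were found without spermidine replicate 4, so these are not a separate dependence. In aged minus young the block called 3 higher and 2 lower in the IRE1 list, and the calls of Eif2s1 and Slc7a5 were lost (0.0607 and 0.0780). Depth limits Trib3 and Xbp1 most, with 0 to 22 and 5 to 29 counts.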

Other observations

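The ERSE letters found before Hspa5 and Dnajc3 also occur in the same window of 19 other tested genes, among them the chaperone genes Calr, Canx, Hsp90b1 and Pdia6. These genes were found by sequence alone, and those named were picked after their values were seen. In aged minus young 2 of the 19 were higher and 0 lower by edgeR, or 10.5% higher against 9.71% and 0 lower against 8.06% of all genes, with a median of -0.04 against 0.10 for all genes. The 2 were Tdrd9, a germline helicase gene of the piRNA pathway, at 1.03 (adjusted p = 0.00793), and Pan2, a deadenylase subunit gene, at 0.75 (adjusted p = 0.0172). In spermidine minus aged Zfp57, a zinc finger gene that maintains imprints, was the 1 gene that passed, at -0.89 (adjusted p = 0.0375), or 5.26% against 2.44% of all genes lower, and the median was -0.19 against -0.03. In spermidine minus young Tdrd9 was higher (0.80, adjusted p = 0.0388) and Zfp57 lower (-1.07, adjusted p = 0.0104), 5.26% each against 3.44% and 1.92% of all genes. Zfp57 had 1247 ± 109 CPM (SD, n = 3) in young, 1095 ± 285 (n = 3) in aged and 592 ± 147 (n = 4) in spermidine libraries. Of the chaperone genes named, Canx was at 0.43 and Calr at -0.67 in spermidine minus aged, with adjusted p = 0.122 and 0.144 by edgeR. Pdia6 was at 0.27 and Hsp90b1 at 0.0006 there, with adjusted p = 0.490 and 0.9985. The 19 genes include Xlr3a, Xlr3b and Xlr3c, each counted separately in the shares and medians.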
